A study of Mus musculus with 6 samples.

Results

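The genes described here were 10 members of the BCL2 family, which decide whether a cell keeps its mitochondria intact or dies by apoptosis. They were chosen by symbol (Bcl2, Bcl2l1, Mcl1, Bax, Bak1, Bcl2l11, Bbc3, Pmaip1, Bid and Bad), by a rule that uses no measured value, and all 10 were found among the 21878 rows of each deposited table. Hematopoietic stem cells (HSCs) were sorted from bone marrow of wild-type C57BL/6 mice and their RNA was sequenced in 6 libraries, 3 from control mice (Ctrl) and 3 from mice given insulin-like growth factor 1 (IGF1). By the methods of the study, IGF1 was recombinant mouse protein injected under the skin at 200 microgram per kg, control mice received vehicle, and HSCs were sorted 1 day later as lineage-negative, Sca-1-positive, c-Kit-positive cells that lacked Flt3 (Flk2) and CD34. An extraction label speaks of irradiated mice, whereas the sample titles, the treatment label and the design text give IGF1, which was followed here. Age, sex and the number of mice behind each library were not given in the sources used here, and no source says that the libraries came from separate mice, so p-values measured the spread between these libraries, which may be technical.

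BCL2 family proteins meet at the outer mitochondrial membrane. The effectors BAX and BAK form pores in it that release cytochrome c and start the caspase cascade; pro-survival proteins (BCL2, BCL-XL from Bcl2l1, MCL1) bind and restrain them; and BH3-only proteins (BIM from Bcl2l11, PUMA from Bbc3, NOXA from Pmaip1, BID, BAD) relay stress or loss of growth factor by blocking the pro-survival proteins or by engaging the effectors. Mcl1 is known to be required for the survival of HSCs, and growth factors such as IGF1 act on the family through AKT, which phosphorylates BAD and keeps FOXO factors, known regulators of Bcl2l11 and Bbc3, out of the nucleus. Much of this control acts on protein, which was not measured.

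Because FOXO factors and p53 are the textbook transcriptional inputs to the BH3-only genes and to Bax, the stretch before each start site was searched for their motifs and the matching stretches are shown. RefSeq promoter entries (GRCm38.p6) were at hand for 9 members with 15 start sites. The 7-letter FOXO motif GTAAACA, on either strand within 250 bases before the start, stood in 2 of the 9 members, beside 3.54% of 27025 genes. A p53 half-site (the decamer by its usual consensus, either strand) stood in 1 member, beside 8.20% of genes. The motif is in capitals, and each stretch is written 5′ to 3′ on the strand of its gene, before the start site and outside annotated exons.
Bcl2l11, FOXO motif beginning 227 bases before the start, chr2:128125788-128125862, plus strand: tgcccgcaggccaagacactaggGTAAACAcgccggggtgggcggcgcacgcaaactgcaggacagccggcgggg
Bbc3, FOXO motif (read as its reverse complement) beginning 167 bases before one of the start sites, chr7:16310049-16310145, plus strand: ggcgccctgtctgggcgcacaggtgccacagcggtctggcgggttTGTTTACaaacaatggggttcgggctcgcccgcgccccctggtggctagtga
Bax, p53 half-site beginning 201 bases before the start, chr7:45467045-45467144, minus strand: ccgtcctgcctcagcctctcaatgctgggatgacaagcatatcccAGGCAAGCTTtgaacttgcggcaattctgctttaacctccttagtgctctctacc
These are matches of letters and not measured binding sites.

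All values are FPKM, fragments scaled to the length of the transcript and to the mapped fragments of the library. Within a library, levels of different genes can therefore be set side by side per length. Summed over all listed genes, FPKM came to 466619, 635111 and 466135 in Ctrl replicates 1 to 3 and to 677826 to 680285 in IGF1. Raw FPKM thus did not share a common total between libraries. The reads on listed genes ran from 11206746 to 15973581 per library. Ctrl replicate 2 stood apart before any gene was compared: counts of Ctrl replicates 1 and 3 differed by a mean chi-squared of 1.52 per gene, where 1 is counting noise, and pairs of IGF1 libraries by 1.69 to 1.89, but Ctrl replicate 2 differed from the other controls by 229 and 231 and from the IGF1 libraries by only 24.6 to 28.0. Over 6619 genes whose IGF1 mean and Ctrl replicates 1 and 3 mean were at least 0.5 apart on the log2 scale, Ctrl replicate 2 lay a median of 80.6% of the way toward IGF1. The fold changes of the members are therefore given with and without it. Of the genes used for sorting, Kit was at 105, 31.4 and 104 FPKM in Ctrl and 24.2 to 24.6 in IGF1, and Ly6a, which encodes Sca-1, at 219, 615 and 231 and at 374 to 387. Cd34 RNA was at 640, 265 and 634 FPKM and at 230 to 238, and Flt3 RNA at 117, 172 and 117 and at 183 to 188, although the gate excluded cells with either protein on their surface. Of 12 HSC marker genes, 8 were at 1 FPKM or more in every library. Sums over marker lists also shifted. The HSC list went from 536, 750 and 553 FPKM in Ctrl to 494 to 510 in IGF1, and the progenitor list from 1227, 654 and 1234 to 577 to 592. Megakaryocyte markers went from 58.6, 77.9 and 58.0 to 97.0 to 108. Overlapping through Ctrl replicate 2 were the B cell list (122, 498 and 121, then 474 to 493) and the T and NK cell list (398, 810 and 388, then 802 to 820), which followed Nkg7. The erythroid and stromal lists overlapped too. Last, the neutrophil and monocyte list went from 3633, 5813 and 3685 in Ctrl to 5836 to 5871. The last list did not rise as a whole: its sum followed Elane, Prtn3 and Ctsg, which were not called, while 4 of its genes (Ngp, Camp, S100a8 and S100a9) were called lower and 0 higher. Their part in the results below was not tested, and in bulk RNA a change in the mix of cells and a change in RNA per cell cannot be told apart.

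Across the 10 members, transcripts for the effectors and for Bad and Bbc3 stood higher in IGF1 than in every Ctrl library, those for Bid and Bcl2l1 stood lower, and Mcl1, the most abundant pro-survival transcript, overlapped between the groups. With all 6 libraries, limma on log2(FPKM + 1) called 0 of 10 members at the threshold of the study, a fold change over 2 with an adjusted p under 0.05, beside 6.61% of the 10449 genes tested (1.98% higher and 4.63% lower); 6 members had an unadjusted p under 0.05, as did 5582 of the 10449 genes, and voom, a second limma fit on reads recovered from the FPKM, also called 0, beside 10.2%. Bid, Bcl2l1 and Bbc3 passed the adjusted p alone, 3 of 10 beside 20.4% of genes. Of these, Bbc3 no longer passed once the trend on length and GC content described below was removed (adjusted p = 0.217). Ctrl and IGF1 did not overlap for 6 members, 4 higher and 2 lower, beside 59.4% of genes (21.9% higher and 37.4% lower), so the members separated the groups about as often as genes did in general. Without Ctrl replicate 2, 4 members were called (Bax, Bak1 and Bad higher, Bid lower), beside 32.9% of genes, and 10 of 10 passed the adjusted p alone, beside 88.5%. All adjusted p-values below are from limma over all genes tested, and an exact permutation test of 3 against 3 libraries cannot give less than 0.1, the two-sided value for each of the 6 members without overlap.

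**Figure D1:**
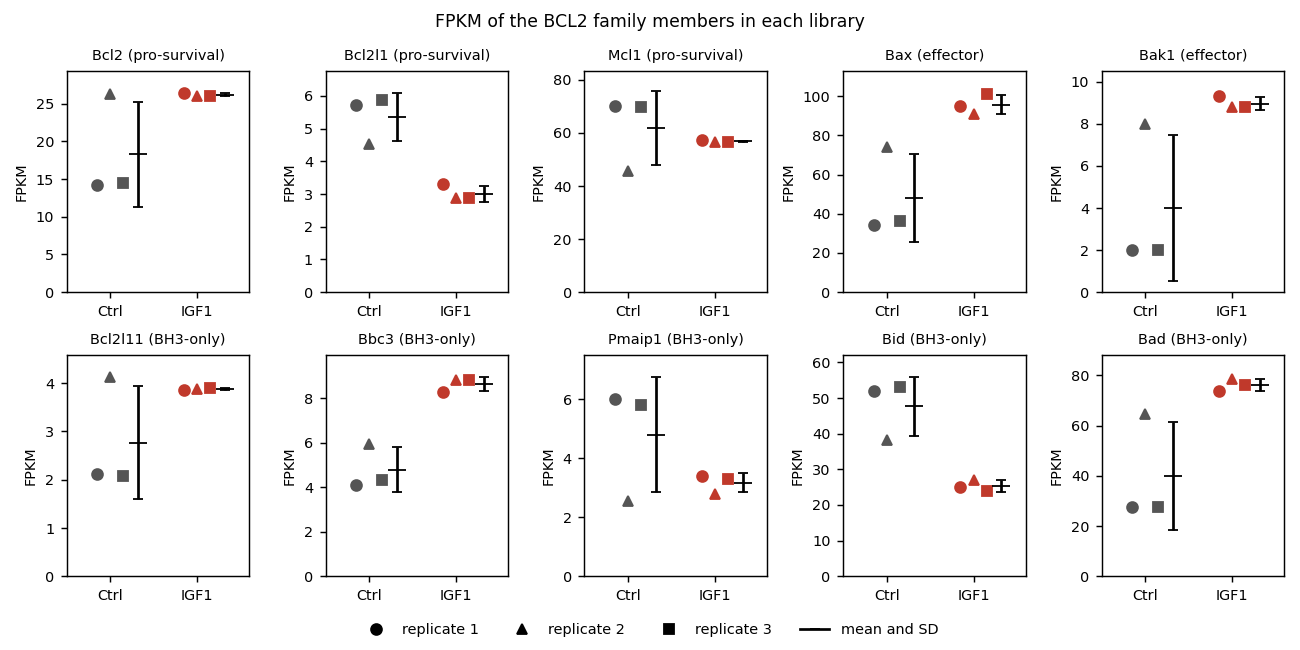
FPKM of each of the 10 members (y axis, linear from 0, own scale per gene) in the 3 Ctrl (grey) and 3 IGF1 (red) libraries, with marker shape giving the replicate and the black bar the mean and SD of 3 libraries. Ctrl replicate 2 (grey triangle) sits at or near the IGF1 libraries for Bcl2, Bak1 and Bcl2l11 and between the groups for Bid, Bbc3 and Bcl2l1.

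Among the pro-survival genes, Mcl1 (chromosome 3, 95658788 to 95663176, GRCm38) encodes a short-lived protein that restrains BAK and binds BIM and NOXA. Mcl1 was at 70.0, 45.8 and 69.8 FPKM in Ctrl replicates 1 to 3 and at 57.2, 56.6 and 56.6 in IGF1. The IGF1 libraries lay inside the range of the controls, below replicates 1 and 3 and above replicate 2. The log2 fold change was -0.09 (SE 0.18, adjusted p = 0.673), and without Ctrl replicate 2 it was -0.29 (adjusted p = 1.24e-05), while scaling libraries by the median ratio, by the 75th percentile or by quantiles turned the first value to between 0.03 and 0.16. With the trend on length and GC content removed, Mcl1 was at 0.35 with all libraries (adjusted p = 0.0377) and at 0.32 without Ctrl replicate 2 (adjusted p = 8.81e-06), so its direction depended on that step.

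Bcl2 (chromosome 1, 106538178 to 106714274), the founding member of the family, was at 14.1, 26.3 and 14.4 FPKM in Ctrl and at 26.4, 26.0 and 26.1 in IGF1. Ctrl replicate 2 could not be told from the IGF1 libraries, so the groups overlapped, and the log2 fold change of 0.55 (SE 0.24) had an adjusted p of 0.111. Against Ctrl replicates 1 and 3 alone IGF1 was 1.83-fold higher by mean FPKM, a log2 fold change of 0.83 (adjusted p = 3.63e-08) and short of the 2-fold threshold.

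Bcl2l1 (chromosome 2, 152780668 to 152831728), whose long product BCL-XL sequesters BAX and BAK and whose short splice form promotes death, was the least abundant of the pro-survival members. It was at 5.72, 4.52 and 5.86 FPKM in Ctrl and at 3.30, 2.87 and 2.87 in IGF1, with no overlap. It was lower in IGF1 by a log2 fold change of -0.66 (SE 0.13, adjusted p = 0.0377), and of -0.76 without Ctrl replicate 2. Gene-level FPKM does not separate the long and short forms; the annotation lists 9 transcripts.

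Both effectors were higher in IGF1 than in any control library without reaching the adjusted threshold. Bax (chromosome 7, 45461697 to 45466898), whose product moves from the cytosol to mitochondria when activated, was at 34.1, 73.9 and 36.5 FPKM in Ctrl and at 95.2, 91.1 and 100.9 in IGF1. Its log2 fold change was 1.07 (SE 0.30, adjusted p = 0.0523), and 1.41 without Ctrl replicate 2 (adjusted p = 1.93e-09). Bak1 (chromosome 17, 27019810 to 27029009), whose product resides on mitochondria, was at 1.995, 8.01 and 2.01 FPKM in Ctrl and at 9.31, 8.78 and 8.79 in IGF1. Ctrl replicate 2 stood above the other controls and 92% of the way to IGF1, and the log2 fold change was 1.201 (SE 0.44, adjusted p = 0.0773), or 1.73 without it (adjusted p = 2.99e-09). Bak1 rested on few reads, 64, 185 and 65 in Ctrl and 231, 199 and 227 in IGF1, and 64 reads carry a counting error of 12.5%. Bax remained the dominant effector transcript, with Bak1 making up 5.23% to 9.78% of their summed FPKM in Ctrl and 8.02% to 8.91% in IGF1.

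The 5 BH3-only genes differed in direction. Bid (chromosome 6, 120891930 to 120916853), which caspase-8 cleaves to carry death receptor signals to mitochondria, had the smallest adjusted p of the 10 members. It was at 51.9, 38.2 and 53.01 FPKM in Ctrl and at 24.99, 27.0 and 23.8 in IGF1, every IGF1 library below every control. Its log2 fold change was -0.88 (SE 0.15, adjusted p = 0.0334), and -1.03 without Ctrl replicate 2, past the 2-fold threshold.

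Bad (chromosome 19, 6941861 to 6951899), which binds BCL2 and BCL-XL unless phosphorylated by AKT and other kinases, was at 27.6, 64.7 and 27.4 FPKM in Ctrl and at 73.6, 78.6 and 76.3 in IGF1. The groups did not overlap, but Ctrl replicate 2 was 84% of the way to IGF1, and the log2 fold change of 1.03 (SE 0.34) had an adjusted p of 0.0631. Without that library it was 1.44 (adjusted p = 3.87e-10), the smallest adjusted p of the 10 members in that fit.

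Bbc3 (chromosome 7, 16308393 to 16318205), a classical target of p53, was at 4.09, 5.95 and 4.31 FPKM in Ctrl and at 8.30, 8.85 and 8.83 in IGF1, again with no overlap. It was higher in IGF1 by 0.75 on the log2 scale (SE 0.15, adjusted p = 0.0380), and by 0.89 without Ctrl replicate 2, which lay 47% of the way to IGF1. Bcl2l11 (chromosome 2, 128126038 to 128162547), whose product BIM binds all pro-survival proteins, was at 2.12, 4.12 and 2.07 FPKM in Ctrl and at 3.86, 3.88 and 3.90 in IGF1. Ctrl replicate 2 exceeded all IGF1 libraries, so the groups overlapped (log2 fold change 0.41, SE 0.22, adjusted p = 0.160), and without it the log2 fold change was 0.66.

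Pmaip1 (chromosome 18, 66458533 to 66465565) encodes NOXA, which binds MCL1 and hastens its loss. It was at 6.02, 2.55 and 5.82 FPKM in Ctrl and at 3.40, 2.79 and 3.30 in IGF1. Ctrl replicate 2 was the lowest of all 6 libraries, and the log2 fold change of -0.41 (SE 0.29) had an adjusted p of 0.257, or was -0.73 without that library. Its reads were few, 78 in Ctrl replicate 2 and 84 to 113 in IGF1.

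**Figure D2:**
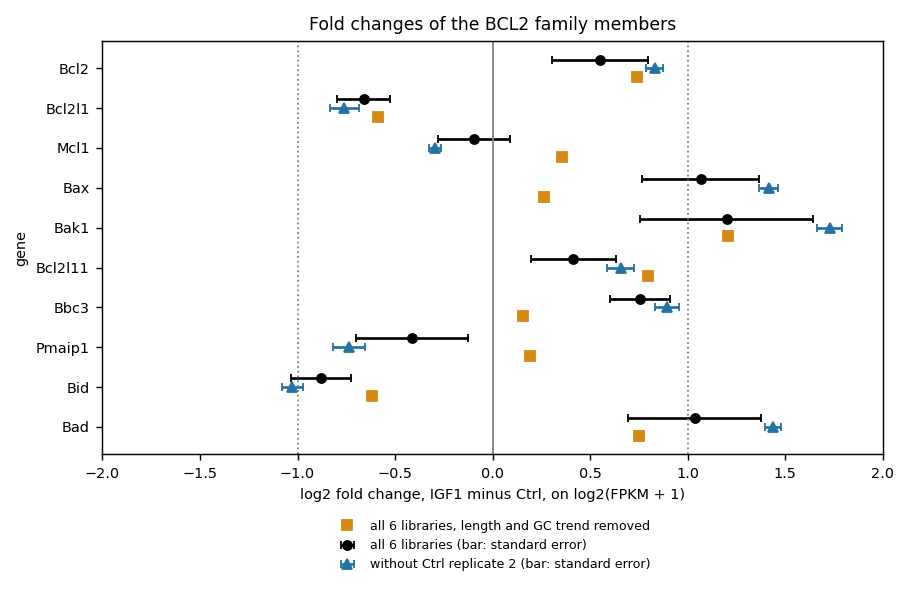
Log2 fold change (IGF1 minus Ctrl, x axis, on log2(FPKM + 1)) of the 10 members with all 6 libraries (black), without Ctrl replicate 2 (blue) and with the trend on transcript length and GC content removed (orange), with bars for standard errors and dotted lines at the 2-fold threshold. Leaving out Ctrl replicate 2 kept every sign and widened every difference, whereas removing the trend brought Bax from 1.07 to 0.26 and Bbc3 from 0.75 to 0.16.

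Ctrl replicate 2 did not sit at one distance from the other controls. It lay 39% of the way to IGF1 for Bcl2l1, 44% for Bid and 47% for Bbc3, which were the 3 members that passed the adjusted p with all libraries, and 74% to 92% of the way for Bax, Bad and Bak1. For Bcl2, Bcl2l11, Pmaip1 and Mcl1 it lay at 101%, 111%, 131% and 204%, at or past the IGF1 mean. Replicates 1 and 3 of Ctrl, by contrast, differed for no member by more than a chi-squared of 2.97 with 1 degree of freedom.

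Between the groups, the summed level of the pro-survival members overlapped and that of the effectors did not. Summed pro-survival FPKM was 89.9, 76.6 and 90.1 in Ctrl and 86.9, 85.5 and 85.5 in IGF1. Summed effector FPKM was 36.0, 81.9 and 38.5 in Ctrl and 104, 99.9 and 110 in IGF1, and summed BH3-only FPKM was 91.7, 115 and 92.7 and then 114, 121 and 116. The pro-survival share of the summed FPKM was 41.3%, 28.0% and 40.7% in Ctrl and 28.4%, 27.9% and 27.5% in IGF1, so Ctrl replicate 2 again lay among the IGF1 libraries. On the log2 scale, the mean of the 3 pro-survival members minus the mean of the 7 pro-death members was 0.83, 0.30 and 0.83 in Ctrl and 0.17, 0.12 and 0.11 in IGF1, with no overlap and a difference of -0.52 between group means. With the length and GC trend described below removed, that difference came to -0.22. Bax, which made up most of the effector sum, then came from a log2 fold change of 1.07 to 0.26. The sums themselves were not corrected for that trend or for the total FPKM of each library.

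The make-up within each side also differed. Mcl1 made up 77.9%, 59.7% and 77.5% of the pro-survival FPKM in Ctrl and 65.8% to 66.2% in IGF1, and Bcl2 15.7%, 34.4% and 16.0% in Ctrl and 30.4% to 30.5% in IGF1. Bid was the most abundant BH3-only transcript of Ctrl replicates 1 and 3, with 56.6% and 57.2% of the BH3-only FPKM, and stood behind Bad in IGF1, where Bid held 20.5% to 22.3% and Bad 64.5% to 65.7%. In Ctrl replicate 2 Bad led Bid as well, with 56.0% against 33.1%.

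Ratios of a pro-survival to a pro-death gene did not all separate the groups. The log2 ratio of Bcl2 to Bax was -1.27, -1.49 and -1.34 in Ctrl and -1.85, -1.81 and -1.95 in IGF1, without overlap, and here Ctrl replicate 2 stood with the controls, although the sign of the difference did not hold once length and GC content were allowed for, as given below. The log2 ratio of Bcl2l1 to Bad was -2.27, -3.84 and -2.23 in Ctrl and -4.48, -4.77 and -4.73 in IGF1, a difference of -1.88 between group means. The log2 ratio of Mcl1 to Bcl2l11 was 5.04, 3.47 and 5.08 in Ctrl and 3.89, 3.87 and 3.86 in IGF1, overlapping through Ctrl replicate 2. As linear ratios of FPKM, Mcl1 to Bcl2l11 was 33.0, 11.1 and 33.7 in Ctrl and 14.5 to 14.8 in IGF1. Mcl1 to Pmaip1 was 11.6, 18.0 and 11.99 in Ctrl and 16.8 to 20.2 in IGF1, the opposite direction relative to Ctrl replicates 1 and 3.

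**Figure D3:**
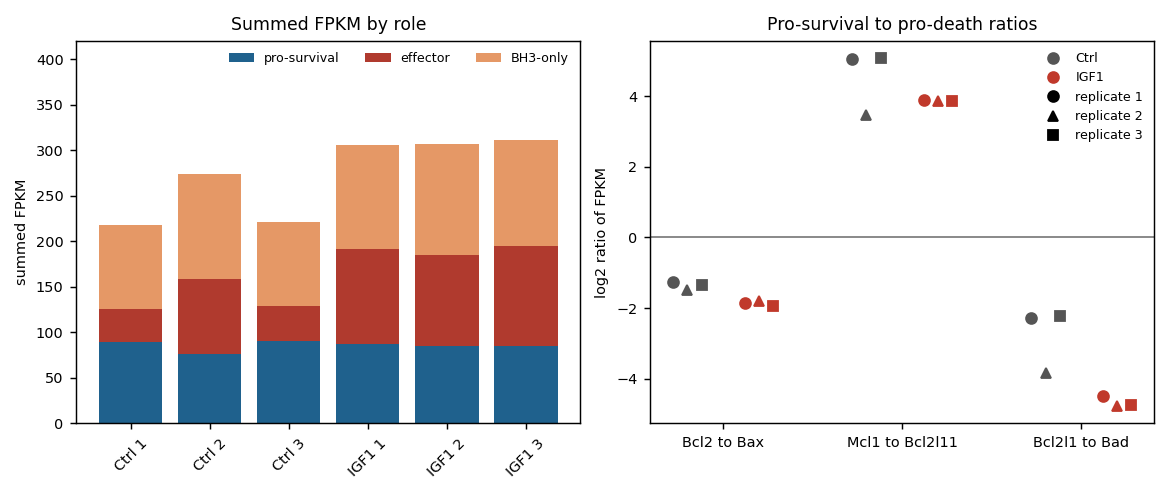
Left, summed FPKM (y axis, stacked from 0) of the pro-survival, effector and BH3-only members in each library; right, log2 ratios of FPKM for 3 pairs of a pro-survival and a pro-death gene in Ctrl (grey) and IGF1 (red), with marker shape giving the replicate. The pro-survival segment spans 76.6 to 90.1 FPKM in all 6 libraries while the effector segment is 36.0 and 38.5 FPKM in Ctrl replicates 1 and 3 and 81.9 or more elsewhere. Sums and ratios are not corrected for length and GC content, and the sums not for the total FPKM of each library.

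Part of these differences moved with transcript length and GC content. Over all genes tested, the median log2 fold change was 0.28 in the quartile with the shortest transcripts and -0.34, -0.43 and -0.16 in the next quartiles, and it went from -0.52 in the quartile lowest in GC to 0.19 in the highest. Bax, with a longest transcript of 1100 bases at 63.5% GC, and Bbc3, with 1814 bases at 65.2%, are short and GC-rich, whereas Pmaip1 is at 42.1% GC and Bcl2 has 7191 bases at 46.3%. After the trend was removed, Bak1 stayed at 1.21, Bad was 0.75, Bcl2 0.74, Bcl2l11 0.80, Bcl2l1 -0.59 and Bid -0.62, but Bax came to 0.26 and Bbc3 to 0.16, and Mcl1 and Pmaip1 turned to 0.35 and 0.19. The log2 ratio of Bcl2 to Bax then differed by 0.51, the opposite sign, and the pro-survival mean minus the pro-death mean by -0.22. In that fit 0 of 10 members were called, beside 3.26% of genes, and with Ctrl replicate 2 also left out 4 were (Bcl2, Bak1, Bcl2l11 and Bad, all higher), beside 20.8%, and 9 passed the adjusted p alone, beside 83.3%. Removing the trend would also remove any true change that follows length or GC content, and the cause of the trend was not tested.

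Another scaling changed the level of all fold changes together. With the FPKM as deposited the middle gene of all those tested had a log2 fold change of -0.18, and with median ratio scaling of 0.01. Relative to that centre Bad was at 1.25, Bak1 at 1.37, Bax at 1.28, Bbc3 at 0.94, Bcl2 at 0.76 and Bcl2l11 at 0.57, and Bid was at -0.66, Bcl2l1 at -0.48 and Pmaip1 at -0.23. Among genes called, those higher in IGF1 made up 29.96% as deposited and 56.5%, 53.7% and 48.8% with median ratio, 75th percentile and quantile scaling.

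Some members share exonic bases with other genes, and whether counting used strand was not given in the sources used here, although the library kit keeps it. Bid shares 628 bases with Bcl2l13 and Bad 524 with Gpr137 on the opposite strand, Bak1 437 and 177 with annotations of Ggnbp1, Bcl2 558 with an antisense RNA, and Bax 192 with Gm45808 on its own strand. Reads in those stretches cannot be assigned here.

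Other BCL2 family genes were mostly scarce. Of 15 listed, 8 passed the filter on low values, and 1 of these was called, lower, beside 4.63% of all genes. Bnip3, a hypoxia-induced gene for a mitophagy receptor, was at 42.1, 20.8 and 45.4 FPKM in Ctrl and at 13.6, 13.7 and 12.6 in IGF1 (log2 fold change -1.30, SE 0.30, adjusted p = 0.0425). With the length and GC trend removed Bnip3 was at -0.91 and no longer called. The next by adjusted p were Bcl2a1b (0.60, adjusted p = 0.0673), Bcl2l12 (0.42, adjusted p = 0.0837) and Bcl2a1d (0.38, adjusted p = 0.0913), of which the Bcl2a1 genes are near-identical copies that can share reads and are uncertain. Bcl2a1b rested on 7 to 21 and Bcl2a1d on 6 to 15 reads per library. With the length and GC trend removed, Bcl2a1b came to 0.09, Bcl2l12 to 0.20 and Bcl2a1d to -0.11. Bcl2l10 and Hrk were listed at 0 in all 6 libraries. The median log2 fold change of the 8 was 0.01, beside -0.18 for all genes. It was 0.24 with quantile, 0.24 with 75th percentile and 0.21 with median ratio scaling, beside -0.02, 0.04 and 0.01 for all genes. With the length and GC trend removed it was -0.15.

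Of the 21 genes for the mitochondrial steps after pore formation, 0 were called by limma, beside 6.61% of all genes. Fold changes were positive for 5 and negative for 16, and their median was -0.36, beside -0.18 for all genes. It came to -0.11 with the length and GC trend removed, -0.11 with 75th percentile and -0.15 with median ratio scaling. All genes then had medians of -0.02, 0.04 and 0.01. The smallest adjusted p belonged to Endog, a mitochondrial nuclease (0.77, adjusted p = 0.0363), Vdac3, an outer membrane channel (-0.82, adjusted p = 0.0367), and Diablo, an antagonist of caspase inhibitors (-0.36, adjusted p = 0.0459). With the length and GC trend removed, Endog came to -0.07, Vdac3 to -0.17 and Diablo to -0.07, so these differences depended on that step. Without Ctrl replicate 2, 4 of the 21 were called, beside 32.9% of all genes: the caspase inhibitor Xiap higher and 3 lower, among them Casp2 and Aifm1. Xiap was at 1.52, 5.38 and 1.41 FPKM in Ctrl and at 4.35, 4.27 and 4.52 in IGF1. Xiap, Casp2 and Aifm1 were named after their values were seen.

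In the death receptor arm, which reaches mitochondria through BID, 8 of 10 genes passed the filter. Of these, 0 were called by limma, beside 6.61% of all genes, and their median was -0.10, beside -0.18. The sign of this median did not hold. It was 0.02 with quantile, 0.09 with 75th percentile and 0.07 with median ratio scaling, and 0.06 with the length and GC trend removed. Casp8, the protease that cleaves BID, was at 74.2, 54.1 and 74.8 FPKM in Ctrl and at 40.6, 43.2 and 44.997 in IGF1, a log2 fold change of -0.63 that passed the adjusted p alone (adjusted p = 0.0447). Ripk1, a death receptor kinase (-0.95, adjusted p = 0.0675), and Tradd, a receptor adaptor (0.34, adjusted p = 0.0743), followed, and without Ctrl replicate 2 Ripk1 was called lower. Fas, named after its values were seen, failed the filter at 0.858, 1.37 and 0.790 FPKM in Ctrl and 0.246, 0.135 and 0.118 in IGF1, on 3 to 31 reads per library.

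Of 24 regulators of BCL2 family genes and proteins, limma called 1 higher and 2 lower, among them Pim1 and Pim2. Of all genes tested, 1.98% were called higher and 4.63% lower. The median of the regulators was -0.40, beside -0.18 for all genes. Pim1, a kinase that phosphorylates BAD, was at 12.9, 23.8 and 14.1 FPKM in Ctrl and at 34.8, 34.5 and 33.1 in IGF1 (1.02, adjusted p = 0.0419). Its relative Pim2 was at 86.2, 23.4 and 85.8 FPKM in Ctrl and at 13.5, 14.3 and 14.4 in IGF1 (-1.92, adjusted p = 0.0483). Ywhae, a 14-3-3 protein of the kind that holds phosphorylated BAD (-0.69, adjusted p = 0.0459), and Trp53, the gene for p53 (-0.82, adjusted p = 0.0468), passed the adjusted p alone, and E2f1, a cell cycle factor, did not (-0.35, adjusted p = 0.0527). Without Ctrl replicate 2, 3 of the 24 were called higher and 6 lower, beside 12.3% and 20.6% of all genes. In that fit the median was -0.69, beside -0.24 for all genes. The median of the regulators was -0.17 with the length and GC trend removed, and -0.17 to -0.21 under the other scalings.

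**Figure D4:**
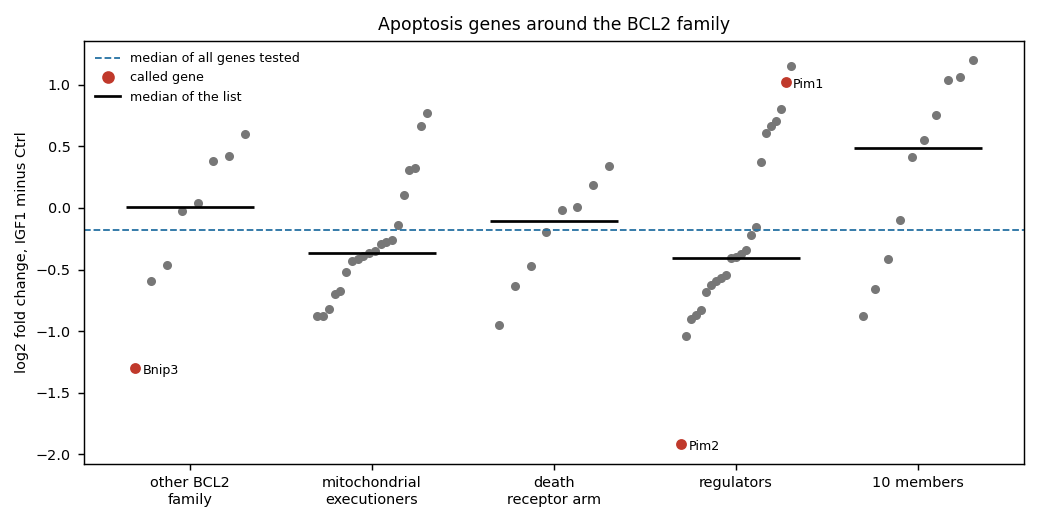
Log2 fold change (IGF1 minus Ctrl, y axis, all 6 libraries) of the tested genes reported here in 4 lists of apoptosis genes and of the 10 members, with called genes in red, medians of the whole lists as black lines and the median of all genes (-0.18) as a dashed line. The called genes shown are Bnip3, Pim1 and Pim2, and none of the 10 members is called.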

How the data were processed

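RNA was sequenced as stranded mRNA libraries. The deposited values are FPKM per gene, made by the authors and used as deposited. The processing notes name fastp, HISAT2, StringTie and GRCm38 (mm10), whereas the methods of the study name RSEM; which made the FPKM was not settled. The 10 members and all gene lists were chosen with earlier results of these data known, although the rule for the members names symbols and uses no value. Every member was described; from the other lists, called genes (at most 4) and the next 3 by adjusted p were named. Some listed genes enter the counts but their own results are not reported here.

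Genes at 1 FPKM or more in at least 3 libraries were tested with limma 3.58.1 (R 4.3.3) on log2(FPKM + 1), a scale that understates changes of low genes, with a variance trend, Benjamini-Hochberg adjustment over all 10449 genes, and the threshold of the study (fold over 2, adjusted p under 0.05). Whole reads were recovered from steps of the FPKM between libraries (tolerance 0.005, 14838 of 14838 genes with 2 or more values above 0) and fitted with voom. Length and GC content came from GENCODE transcripts (GRCm38) for 96.7% of genes tested, and a loess trend (span 0.3) was removed in an alternative. Other scalings, filters, pseudocounts, library weights, a replicate block and omission of each library were tried. Samples were grouped by their labels. The scripts were tested on simulated data. Read totals of 11206746 to 15973581 set the precision, and counting errors do not include biological spread.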

Additional observations from a re-analysis of the deposited data

How the results depend on the processing

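The settings below changed counts more than directions. Of the 10 members, 0 were called with all libraries and under every other setting except library weights, omission of Ctrl replicate 2, and that omission with the length and GC trend removed (chosen after seeing the data), each of which gave 4. With weights (0.0137 for Ctrl replicate 2) Bax was 1.42, Bak1 1.73, Bad 1.43 and Bid -1.02. Leaving out 1 library at a time gave 0 to 4 called members, 0 to 1281 genes higher and 0 to 2157 lower (207 and 484 with all 6), and 0 to 1 other BCL2 family genes, 0 to 4 executioners, 0 to 1 death receptor genes and 0 to 9 regulators called; the upper ends came without Ctrl replicate 2. With any other library left out no gene was called, while 2982 to 3205 had an unadjusted p under 0.05.

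Genes called lower were 319 with quantile, 259 with 75th percentile and 244 with median ratio scaling, the last with 317 higher. There were 109 higher and 265 lower without the filter, 66 and 157 with a pseudocount of 5, 1276 and 2159 with weights, 382 higher with voom, 148 lower without the length and GC trend, 1216 and 890 without it and Ctrl replicate 2, and 0 and 0 with Ctrl replicates 1 and 3 averaged (added after seeing the data), where other family genes and regulators also came to 0. Executioners called were 1 (quantile, 75th percentile), 4 (weights) and 2 (trend and Ctrl replicate 2 removed); death receptor genes 1 (weights); regulators 1 (quantile, median ratio, trend removed), 0 (pseudocount of 5), 9 (weights) and 8 (trend and Ctrl replicate 2 removed); other family genes 0 (trend removed).

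The log2 fold change of Mcl1 turned to 0.0344 (quantile), 0.16 (75th percentile), 0.12 (median ratio), 0.0065 and 0.0042 (without Ctrl replicate 1 or 3), 0.0054 (both averaged), and 0.35 and 0.32 (trend removed, with and without Ctrl replicate 2); that of Pmaip1 turned to 0.19 and 0.0360 in the last pair. With the trend removed and Ctrl replicate 2 left out, Bcl2 was 1.07, Bak1 1.77, Bcl2l11 1.18 and Bad 1.04, and the log2 ratios differed by 0.75 (Bcl2 to Bax), -1.32 (Mcl1 to Bcl2l11) and -0.30 (mean pro-survival minus mean pro-death). With the trend alone removed the first was 0.51 and the last -0.22, and with quantile scaling Bcl2 to Bax was -0.35. The median of other family genes became -0.0273 (5 FPKM filter), -0.15 (trend removed), -0.29 (with Ctrl replicate 2 out), -0.0035 (controls averaged) and -0.0230 to 0.0507 as single libraries were left out (-0.0183 and -0.0139 without IGF1 replicates 1 and 2); that of death receptor genes became 0.0235, 0.0921, 0.0667, 0.0602 and 0.0461 (quantile, 75th percentile, median ratio, trend removed, also without Ctrl replicate 2). The cause was not tested. The filter of 5 FPKM left Bcl2l1, Bcl2l11 and Pmaip1 out.

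No label says that replicate numbers pair the samples. Deviations of same-numbered Ctrl and IGF1 libraries correlated at -0.06, -0.05 and 0.01. With 3 libraries per group and Ctrl replicate 2 far from the other controls, these correlations can neither show nor exclude pairing. The replicate block gave 0 genes higher, 0 lower, 0 other family genes and 0 regulators called. Its adjusted p was 0.0851 (limma) for each of Bid, Bcl2l1 and Bbc3.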
